A study of Mus musculus with 16 samples.

Results

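The 10 transcripts described here mark platelets and the megakaryocytes that shed them: Ppbp, Pf4, Itga2b, Itgb3, Gp1bb, Gp9, Gp5, Gp6, Treml1 and Tubb1. They were taken by gene symbol, and all 10 were found among the 43346 genes of the count table. The table holds RNA-seq read counts of sorted mouse lung endothelial cells (ECs), which form the inner lining of vessels, in 16 libraries. All mice were of the FVB strain, aged 2 months in the young groups and 18 months in the aged groups. Bleomycin, a drug that injures the lung and leaves fibrosis, was delivered into the trachea, and sham mice received PBS, which made 9 young libraries (5 of Young Sham and 4 of Young Bleo) and 7 aged ones (3 of Aged Sham and 4 of Aged Bleo). Libraries are named here by their group and the number in their title. By the study's methods, mice of both sexes carried a GFP reporter driven by the collagen promoter of Col1a1, lungs were taken about a month after delivery, blood was washed out through the left ventricle with cold PBS, red cells were lysed, debris, doublets and dead cells were gated out, and CD45-, EpCAM-, GFP- and CD31+ cells were sorted. All 4 groups therefore share the reporter, the perfusion and the gate.

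Platelets are cell fragments without a nucleus that carry messenger RNA inherited from the megakaryocyte, and in mice the lung vasculature itself houses megakaryocytes. They stop bleeding by binding von Willebrand factor through the GPIb-IX-V receptor, collagen through GPVI and fibrinogen through integrin αIIbβ3, and they release chemokines from their α-granules. Platelets and megakaryocytes also carry CD31, the surface protein on which the ECs were sorted, and platelets can stick to ECs and to leukocytes. The counts do not say in which cells or fragments the RNA lay. In these bulk libraries, fewer cells or fragments of a type and less RNA per cell cannot be told apart.

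Both α-granule chemokine genes lie side by side on chromosome 5 of mm10, Ppbp at chr5:90768518-90770060 and Pf4 at chr5:90772435-90773381. Both integrin genes lie on chromosome 11, Itga2b at chr11:102453297-102470122 and Itgb3 at chr11:104608000-104670476. The genes of the GPIb-IX-V receptor are Gp1bb at chr16:18620319-18622403, Gp9 at chr6:87778136-87779762 and Gp5 at chr16:30307686-30310779. Gp6 lies at chr7:4368713-4397744, Treml1 at chr17:48359916-48367174 and Tubb1 at chr2:174450695-174457882. Gp1bb shares 593 bases with its neighbour Sept5, and since the strand setting of the counting was not stated, reads in that stretch cannot be assigned with certainty. Sept5 reached only 34.9 to 200 normalized counts (read counts divided by the DESeq2 size factor of the library), against 1154 to 47158 for Gp1bb, and it was not called in any of the 6 contrasts tested.

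Megakaryocyte genes are known targets of the zinc finger factor GATA1 and of ETS factors, the family that includes Fli1 and the endothelial factor Erg. The 250 bases before the RefSeq start of each gene were therefore read from the RefSeq promoter table (GRCm38.p6, the assembly also named mm10), which held 9 of the 10 genes and no entry for Itgb3. The RefSeq starts can differ from the gene spans of the count table given above: 239 of the 250 bases of the Itga2b window lay inside its span, and the windows of Gp9, Tubb1 and Gp5 ended 66, 100 and 2 bases before theirs. The GATA words searched were AGATAA with its variant AGATAG, and TGATAA with its variant TGATAG, and the ETS words were AGGAAG with its variant CGGAAG, on both strands. A GATA word and an ETS word can share their end bases, which did not occur in the windows shown. A GATA word stood in 3 of the 9 windows (Gp1bb, Gp5 and Gp6), against 26.5% of all 32851 promoters of this length. An ETS word stood in 6 of the 9 (Pf4, Itga2b, Gp1bb, Gp9, Gp5 and Tubb1), against 39.2%, and both kinds stood in 2 (Gp1bb and Gp5), against 9.21%. Ppbp and Treml1 held neither. The windows of 4 genes are shown because they hold each kind of word alone or together, 5′ to 3′ on the strand of the gene, with the words of either strand in capitals. The match is of letters and says nothing of binding.
Gp5, chr16:30310782-30311031, minus strand: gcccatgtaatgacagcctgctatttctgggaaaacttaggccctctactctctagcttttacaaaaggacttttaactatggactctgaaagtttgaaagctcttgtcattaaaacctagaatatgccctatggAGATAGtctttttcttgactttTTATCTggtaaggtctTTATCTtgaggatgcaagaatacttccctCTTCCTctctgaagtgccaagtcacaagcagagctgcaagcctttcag
Gp6, chr7:4397745-4397994, minus strand: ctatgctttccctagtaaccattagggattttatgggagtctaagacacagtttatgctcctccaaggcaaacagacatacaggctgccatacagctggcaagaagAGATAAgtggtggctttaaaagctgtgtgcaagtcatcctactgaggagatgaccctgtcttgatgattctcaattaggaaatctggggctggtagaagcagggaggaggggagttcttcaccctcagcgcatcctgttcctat
Itga2b, chr11:102469884-102470133, minus strand: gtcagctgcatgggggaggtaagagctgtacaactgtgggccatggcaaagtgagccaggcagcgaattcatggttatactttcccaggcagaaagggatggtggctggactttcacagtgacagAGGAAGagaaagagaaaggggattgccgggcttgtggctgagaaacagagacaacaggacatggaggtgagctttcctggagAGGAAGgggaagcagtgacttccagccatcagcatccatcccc
Pf4, chr5:90772185-90772434, plus strand: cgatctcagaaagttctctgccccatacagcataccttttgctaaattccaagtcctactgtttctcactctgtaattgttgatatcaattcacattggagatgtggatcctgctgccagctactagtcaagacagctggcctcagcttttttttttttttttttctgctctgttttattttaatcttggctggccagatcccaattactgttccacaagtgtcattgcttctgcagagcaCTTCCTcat

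Total counts ranged from 20907113 to 71035301 per library. The endothelial genes that define the sort were high throughout, with Cdh5 (VE-cadherin) at 648 to 987 and Pecam1 (CD31) at 1030 to 2154 counts-per-million (CPM) of the library total. Ptprc, the gene of CD45, was at 0 to 22.4 CPM. The labels do not tie each library to an animal and give no batch or date, so p-values measure the spread between these libraries only.

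Platelet transcripts were detected in every library at widely different levels. Summed over the 10 genes, they took 931 to 1659 CPM in Young Sham, 391 to 1007 CPM in Young Bleo, and 249, 648, 1501 and 1875 CPM in Aged Bleo 1, 2, 3 and 5. In Aged Sham they took 2721 CPM in library 13, 10977 CPM in library 14 and 2250 CPM in library 15. A single library thus stood far above the rest: Aged Sham 14 gave 1.10% of its counts to these 10 genes, which was 4.03-fold the next highest library and 44.0-fold the lowest, Aged Bleo 1. The mean sum of Aged Sham was 3.75-fold that of Young Sham with all 3 libraries and 1.75-fold without library 14.

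Per length, in FPKM, the order of the 10 genes in Young Sham was Ppbp (196 ± 46.3), Pf4 (139 ± 36.7), Tubb1 (50.04 ± 18.7), Gp9 (36.1 ± 7.11), Gp1bb (25.0 ± 5.62), Gp5 (19.8 ± 5.79), Itga2b (13.8 ± 5.67), Treml1 (13.1 ± 2.52), Itgb3 (6.79 ± 2.62) and Gp6 (5.42 ± 1.06) (mean ± SD, n = 5). Within the larger SD of the pair lay Tubb1 and Gp9, Gp1bb and Gp5, Itga2b and Treml1, and Itgb3 and Gp6, whereas every value of Ppbp and Pf4 lay above those of the other 8 genes. Ppbp, the precursor of platelet basic protein and of the neutrophil attractant NAP-2, ranked between 80 and 164 among all genes by FPKM in Young Sham. In Aged Sham 14 it ranked 6, at 1772 FPKM, and Pf4 (platelet factor 4, CXCL4) ranked 15, at 1058 FPKM. Gp6, the lowest, ranked between 4080 and 5397 in Young Sham.

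**Figure D1:**
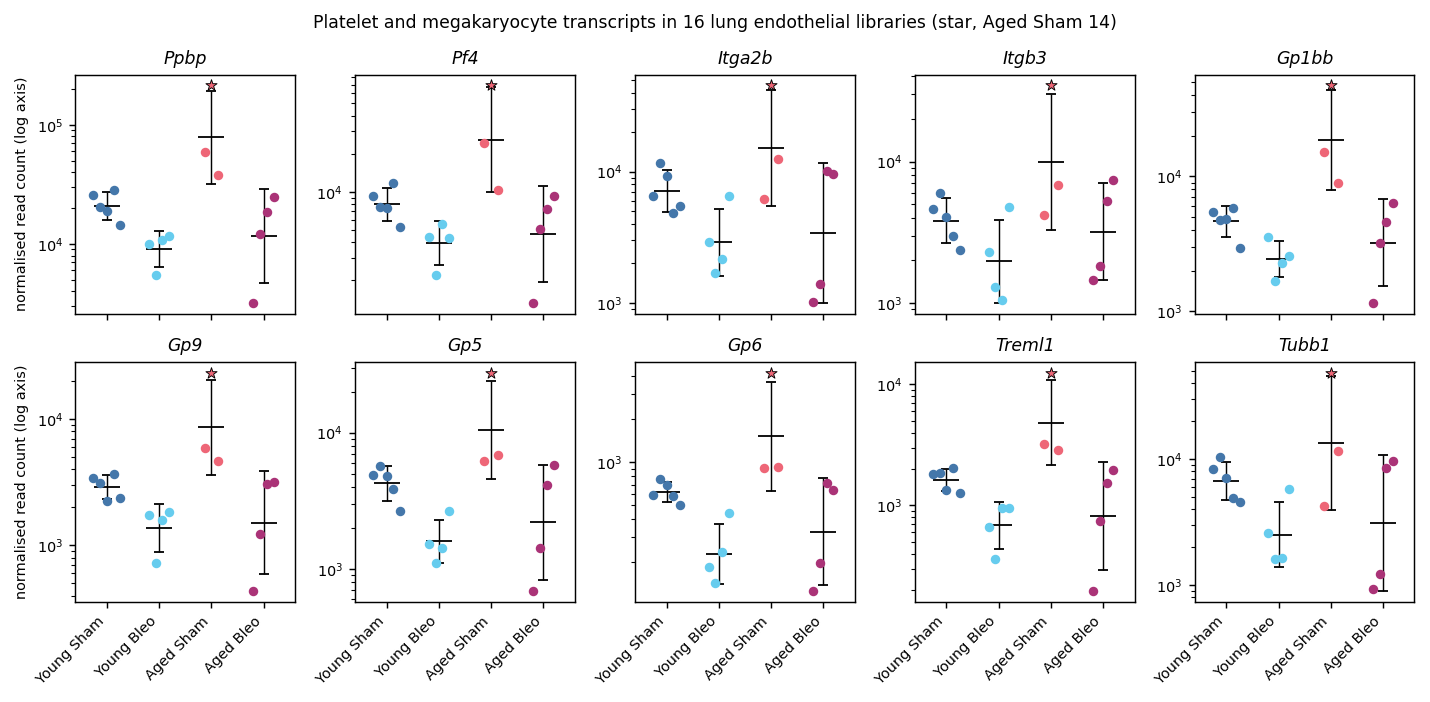
Normalized read counts (vertical log axes) of the 10 platelet and megakaryocyte transcripts in each library, by group. Points are libraries, the star is Aged Sham 14, and the horizontal mark and bars are the geometric mean and 1 SD on the log2 scale. The star is the highest point in all 10 panels, and the geometric means fall in the order Aged Sham, Young Sham, Aged Bleo and Young Bleo.

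The levels of the 10 genes followed 1 order of groups. For all 10, the mean normalized count was highest in Aged Sham, then Young Sham, then Aged Bleo and lowest in Young Bleo, and the same order held for the medians and for means and medians without Aged Sham 14. The 10 genes share their libraries, so these are not 10 independent observations of the order. By the study's methods, the RNA integrity number, a score of RNA quality, reached lower values in both sham groups than in both bleomycin groups. Its ranges overlapped between sham and bleomycin at each age. The part of RNA quality in the order was not tested. Young Sham and Aged Bleo, neighbours in the order, did not differ past the threshold for any member, and neither did Aged Bleo and Young Bleo. The spread within groups was unequal, as the highest library held 1.52 to 2.54 times the lowest within Young Sham, 2.11 to 4.56 times within Young Bleo, 4.33 to 11.4 times within Aged Sham and 5.11 to 10.4 times within Aged Bleo.

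Aged Sham 14 was the highest of the 16 libraries for all 10 members, at 2.86-fold (Pf4) to 4.65-fold (Itgb3) the next highest library, with a median of 3.89. Across the 13774 genes with a mean of at least 50 normalized counts, this library was the highest for 7.68%. It exceeded the next library by 2.86-fold or more for 0.581%. That this library was high for the members was known beforehand, so these shares describe it and test nothing. Cook's distance, by which DESeq2 judges how far 1 library moves a fit, peaked in Aged Sham 14 for all 10 members but stayed between 0.0639 (Pf4) and 1.18 (Treml1), under its cutoff of 5.41. The filter at this cutoff flagged no member, which does not show that library 14 had little influence on the fits. The members' results that rest on Aged Sham are therefore given with and without library 14.

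The first comparison asked how sham-treated ECs of aged mice differed from those of young mice. Of the 10 members, 5 were higher in Aged Sham than in Young Sham, namely the chemokine genes Ppbp and Pf4, the GPIb-IX subunit genes Gp1bb and Gp9, and Treml1, while the other 5 did not pass. A gene was called where the DESeq2 Wald test gave an adjusted p of at most 0.05 (Benjamini-Hochberg over all genes) and the log2 fold change was 0.5 or more in size, and 2.24% of 18515 genes were called higher. All 5 calls were lost when Aged Sham 14 was left out, in a fit that called 1.1% of genes higher. The log2 fold changes of all 10 members stayed above 0 there, and 3 had an unadjusted p under 0.05. That is a looser bar than a call, and the share of all genes that met it was not counted. The calls of Gp9 and Treml1 were also lost without Young Sham 23 or without Young Sham 25, that of Gp9 without Aged Bleo 2 and that of Treml1 without Young Bleo 20. With edgeR's quasi-likelihood test, 1 member (Gp1bb) was called, against 0.699% of genes called higher.

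Ppbp had normalized counts of 25548, 20270, 18812, 28452 and 14445 in Young Sham and 59078, 213604 and 38048 in Aged Sham 13, 14 and 15. The groups did not overlap, and the lowest Aged Sham library lay above every Young Sham library. The log2 fold change was 2.27 ± 0.53 (SE, DESeq2 adjusted p = 0.00186) with all libraries and 1.18 ± 0.50 (adjusted p = 0.263) without library 14.

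Gp1bb, the β chain of the GPIb complex, had 5403, 4770, 4870, 5811 and 2928 normalized counts in Young Sham and 15079, 47158 and 8937 in Aged Sham. Here too, no Young Sham library reached the Aged Sham range. Its log2 fold change of 2.32 ± 0.48 (SE, DESeq2 adjusted p = 0.000282) fell to 1.34 ± 0.46 (adjusted p = 0.103) without library 14, and it was the member that edgeR called (adjusted p = 0.0334). Gp9, whose product sits beside the GPIb chains, had 3428, 3109, 2251, 3691 and 2368 in Young Sham and 5875, 23074 and 4648 in Aged Sham, again with no overlap. Its log2 fold change was 1.92 ± 0.54 (SE, DESeq2 adjusted p = 0.0178), and 0.83 ± 0.53 without library 14.

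Pf4 had 9263, 7567, 7488, 11750 and 5246 normalized counts in Young Sham and 24171, 69238 and 10293 in Aged Sham. It passed the test, but the groups overlapped, since Aged Sham 15 lay within the Young Sham range. The log2 fold change was 2.06 ± 0.53 (SE, DESeq2 adjusted p = 0.00700), and 1.06 ± 0.53 without library 14. Treml1, the gene of TLT-1, a receptor that α-granules bring to the surface of activated platelets, had 1813, 1844, 1339, 2033 and 1264 in Young Sham and 3205, 12375 and 2855 in Aged Sham. These groups did not overlap, and the log2 fold change was 1.89 ± 0.55 (SE, DESeq2 adjusted p = 0.0238), and 0.87 ± 0.56 without library 14.

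The integrin genes and Tubb1, which encodes the β-tubulin of the platelet's marginal microtubule band, were not called, and the groups overlapped for all 3. Itga2b, the αIIb chain, had 6516, 11624, 9180, 4818 and 5495 normalized counts in Young Sham and 6155, 45444 and 12391 in Aged Sham, and Tubb1 had 8319, 10414, 7055, 4935 and 4566 and 4222, 48044 and 11684. Aged Sham 13 lay inside the Young Sham range for Itga2b and below it for Tubb1, so only library 14 and, narrowly, library 15 exceeded Young Sham. The log2 fold changes, 1.50 ± 0.76 for Itga2b (SE, DESeq2 adjusted p = 0.341) and 1.59 ± 0.79 for Tubb1 (adjusted p = 0.324), shrank to 0.30 ± 0.83 and 0.17 ± 0.85 without library 14. Itgb3, the β3 chain, which pairs with αIIb in platelets and with αV in ECs, had 4648, 6028, 4054, 2976 and 2372 in Young Sham and 4210, 34559 and 6792 in Aged Sham (log2 fold change 1.92 ± 0.75, DESeq2 adjusted p = 0.152, and 0.46 ± 0.60 without library 14).

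Gp5, the GPV subunit, and Gp6, the collagen receptor GPVI, missed the threshold although their groups did not overlap. Gp5 had 4900, 5688, 4798, 3847 and 2665 normalized counts in Young Sham and 6159, 27311 and 6881 in Aged Sham, and Gp6 had 594, 768, 695, 584 and 505 and 911, 4195 and 927. In both genes libraries 13 and 15 lay just above the highest Young Sham library. Their log2 fold changes were 1.62 ± 0.56 for Gp5 (SE, DESeq2 adjusted p = 0.0797) and 1.68 ± 0.56 for Gp6 (adjusted p = 0.0661), and 0.57 ± 0.56 and 0.55 ± 0.55 without library 14. In all, every Aged Sham library lay above every Young Sham library for 6 members (Ppbp, Gp1bb, Gp9, Gp5, Gp6 and Treml1), against 5.44% of 13774 genes, and the count was again 6 without library 14, against 7.99%.

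**Figure D2:**
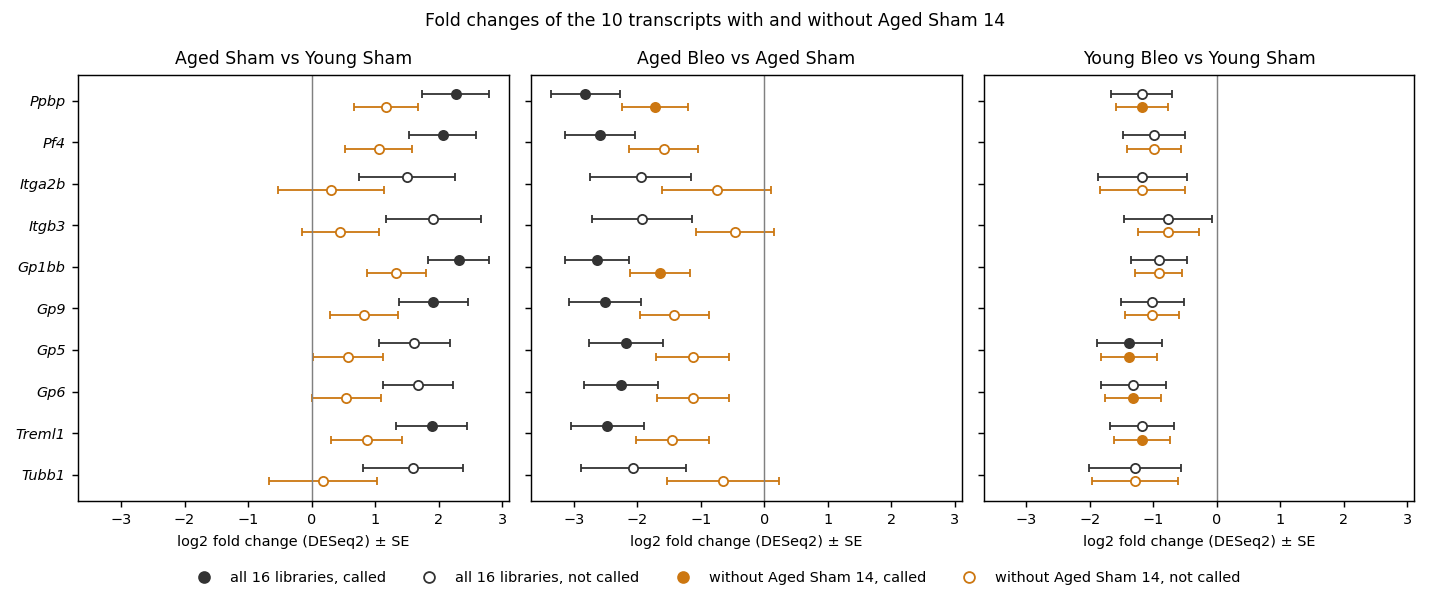
DESeq2 log2 fold changes (horizontal axis, bars ± SE) of the 10 transcripts in 3 comparisons, with all 16 libraries (dark) and without Aged Sham 14 (orange); filled points were called. In Aged Sham against Young Sham 5 points are filled with all libraries and 0 without library 14, and in Aged Bleo against Aged Sham 7 and 2 are filled.

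The second comparison asked what bleomycin changed in young ECs. All 10 members had lower means in Young Bleo than in Young Sham, with log2 fold changes from -1.38 to -0.77, but 1 gene, Gp5, passed the test. In the same comparison 6.35% of 18515 genes were called lower. The 10 members had a median log2 fold change of -1.18, beside 0.01 over all genes tested.

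Gp5 had 4900, 5688, 4798, 3847 and 2665 normalized counts in Young Sham and 1529, 1113, 1416 and 2661 in Young Bleo. The groups came close, as Young Bleo 20 lay just under Young Sham 25, the lowest sham library. Its log2 fold change was -1.38 ± 0.51 (SE, DESeq2 adjusted p = 0.0447), and the call was lost without any 1 of 8 libraries (Aged Bleo 3, Young Bleo 17, 18 and 19, and Young Sham 21, 22, 23 and 24) and with edgeR (adjusted p = 0.127).

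Gp6 had 186, 143, 238 and 443 normalized counts in Young Bleo and did not overlap with Young Sham either (log2 fold change -1.32 ± 0.51, DESeq2 adjusted p = 0.0618). Ppbp, at 9981, 5472, 10758 and 11683 in Young Bleo, also lay wholly below Young Sham (log2 fold change -1.18 ± 0.48, adjusted p = 0.0769). Non-overlap was seen for 5 members (Ppbp, Gp9, Gp5, Gp6 and Treml1), against 8.97% of 13774 genes. For Itga2b, Itgb3 and Tubb1, Young Bleo 20 reached the Young Sham range, at 6553, 4795 and 5741 normalized counts, while the other 3 Young Bleo libraries were at 1695 to 2915, 1051 to 2280 and 1619 to 2567.

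The count of calls depended on which libraries set the spread. When Aged Sham 14 was left out of the shared fit, 4 members (Gp5, Gp6, Ppbp and Treml1) were called lower in Young Bleo, against 6.77% of genes. When only the 9 libraries of both young groups entered, 9 members were called, all but Itgb3, against 7.79% of 18686 genes. The fold changes themselves barely moved, with a median of -1.17 in that fit. With edgeR on all libraries, 0 members were called, against 4.09% of genes called lower. An unadjusted p under 0.05, a looser bar not counted over all genes, was met by 4 members.

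The third comparison asked the same of aged mice. Of the 10 members, 7 were lower in Aged Bleo than in Aged Sham, all except Itga2b, Itgb3 and Tubb1, against 2.44% of 18515 genes called lower. Without Aged Sham 14, 2 members, Ppbp and Gp1bb, passed with DESeq2, against 2.28% of genes. With edgeR the same 2 genes passed with all libraries, against 0.349% of genes, and 0 passed without library 14, against 0.256%. In the latter fit 5 members had an unadjusted p under 0.05, a looser bar not counted over all genes.

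Ppbp had 3203, 12146, 18641 and 24834 normalized counts in Aged Bleo 1, 2, 3 and 5, all below the 38048 of the lowest Aged Sham library. Its log2 fold change was -2.82 ± 0.55 (SE, DESeq2 adjusted p = 9.95e-05), and -1.72 ± 0.52 (adjusted p = 0.0195) without library 14. Gp1bb, at 1154, 3225, 4595 and 6377 in Aged Bleo, also lay below every Aged Sham library. It changed by -2.63 ± 0.51 (SE, DESeq2 adjusted p = 7.60e-05), and by -1.65 ± 0.48 (adjusted p = 0.0131) without library 14.

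Pf4 was at 1323, 5104, 7371 and 9212 normalized counts in Aged Bleo, a range that ended under the lowest Aged Sham library, and its log2 fold change of -2.59 ± 0.56 (SE, DESeq2 adjusted p = 0.00049) became -1.58 ± 0.55 (adjusted p = 0.0516) without library 14. The remaining called members, Gp9, Gp5, Gp6 and Treml1, had log2 fold changes of -2.50, -2.17, -2.25 and -2.47, and of -1.41, -1.13, -1.12 and -1.45 without library 14. The call of Gp5 was also lost without Aged Bleo 3. For these 7 genes every Aged Bleo library lay below every Aged Sham library, with or without library 14, against 7.12% and 12.2% of 13774 genes.

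Itga2b was at 1010, 1383, 10156 and 9580 and Tubb1 at 935, 1227, 8494 and 9709 normalized counts in Aged Bleo. Libraries 3 and 5 were thus higher than Aged Sham 13, and the groups overlapped. Their log2 fold changes were -1.95 ± 0.80 for Itga2b (SE, DESeq2 adjusted p = 0.133) and -2.07 ± 0.83 for Tubb1 (adjusted p = 0.122). Itgb3 was at 1454, 1833, 5269 and 7429 and did not pass either (-1.93 ± 0.78, adjusted p = 0.129). Without Aged Sham 14 the values were -0.75 ± 0.86 for Itga2b, -0.65 ± 0.88 for Tubb1 and -0.46 ± 0.62 for Itgb3. Leaving out Aged Sham 13 brought Tubb1, and with it an 8th member, past the threshold. In that fit 373 of 16023 genes were called lower.

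Within Aged Bleo the 4 libraries split into a lower pair, 1 and 2, and a higher pair, 3 and 5. Aged Bleo 1 was the lowest of all 16 libraries for 9 members, and the exception, Itgb3, was lowest in Young Bleo 19. Macrophage and monocyte genes, summed over a list of 8 (Cd68, Adgre1, Csf1r, Mrc1, Marco, Lyz2, Chil3 and Ly6c2), were at 4836 and 2822 CPM in Aged Bleo 1 and 2 and at 1125 and 694 CPM in Aged Bleo 3 and 5, so that the highest macrophage sums stood where the platelet sums were lowest. That list was at 89.2 to 180 CPM in Young Sham, 490 to 1401 CPM in Young Bleo and 222 to 580 CPM in Aged Sham. In Young Bleo the highest of these sums also stood in the library with the lowest platelet sum, Young Bleo 18. The sham groups ran otherwise. Aged Sham 14, with the highest platelet sum, held the 580 CPM, and Young Sham 25, with the lowest platelet sum of its group, the 89.2 CPM. The part of these macrophage and monocyte genes in the platelet values was not tested.

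Aged Bleo differed from neither young group past the threshold for any member. Against Young Sham the 10 log2 fold changes ran from -0.59 (Gp9) to -0.01 (Itgb3), with SEs of 0.44 to 0.73, and 0 of 10 passed with DESeq2, where 0 had an unadjusted p under 0.05, or with edgeR, against 9.72% of genes called in either direction by DESeq2 and 5.69% by edgeR. Against Young Bleo they ran from 0.43 (Gp9) to 0.83 (Gp5), all positive, with 0 calls by either tool and 0 unadjusted p-values under 0.05, against 1.03% of genes called by DESeq2 and 0.0437% by edgeR. The groups overlapped for every member in both comparisons, while 6.05% of genes lay wholly lower in Aged Bleo than in Young Sham and 2.64% wholly higher than in Young Bleo.

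The response to bleomycin was compared between ages by subtracting its young from its aged log2 fold change within the model. All 10 differences were negative, from -1.71 ± 0.67 for Gp1bb (SE, DESeq2 adjusted p = 0.367) to -0.77 ± 1.06 for Itga2b (adjusted p = 0.896), and 0 passed with DESeq2 or edgeR, against 0.381% of 19440 genes called by DESeq2 and 0.00546% of 18324 by edgeR. At an unadjusted p under 0.05, a looser bar not counted over all genes, there were 4 members with DESeq2 and 2 with edgeR. Without Aged Sham 14, 5 of the 10 differences turned positive, namely those of Itga2b (0.43), Itgb3 (0.31), Gp5 (0.25), Gp6 (0.19) and Tubb1 (0.64), and the median was -0.04. These contrasts share their sham libraries with the comparisons above.

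A further 23 genes of platelets and megakaryocytes gave the other part of the lineage, and all were tested. Aged Sham 14 was the highest library for 19 of the 23, the exceptions being F2rl3, Tbxa2r, Zfpm1 and Rasgrp2. Among surface receptors, Clec1b (CLEC-2, the receptor for podoplanin) reached 22691 normalized counts in that library, against 8967 to 9949 in the other Aged Sham libraries and 3992 to 7116 in Young Sham. Gp1ba, the von Willebrand factor binding chain of GPIb, reached 8154, which was 4.34-fold the next highest library. Gata1, the transcription factor of the erythroid and megakaryocyte lineages, was at 540 to 2646 normalized counts in Aged Sham and 330 to 1049 in Young Sham.

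In Aged Sham against Young Sham, 5 of the 23 were called higher and 1 lower, against 2.24% and 1.11% of 18515 genes. The higher genes were Alox12 (12-lipoxygenase, log2 fold change 1.83), Clec1b (1.46), Fermt3 (kindlin-3, 1.68), Nrgn (1.94) and Plek (pleckstrin, 1.86), and the lower one was Tbxa2r (the thromboxane receptor, -0.89). Without library 14 no call remained among the 23, in a fit that called 369 of 17917 genes in either direction. With all libraries edgeR called 0 of the 23, and 158 of 18324 genes. An unadjusted p under 0.05 was met by 3 and 18 of the 23 in these fits. This is a looser bar than a call, and it was not counted over all genes. The count of DESeq2 calls was 13 without Aged Bleo 1 and 10 without Aged Sham 13. It was 3 without Aged Bleo 3, Young Bleo 19, Young Sham 22 or Young Sham 25. Over all genes tested, 673 of 18838, 609 of 17481 and 463 to 633 were called in either direction in these fits. With all libraries 621 of 18515 were called.

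In Young Bleo against Young Sham 7 of the 23 were lower and 0 higher, against 6.35% of genes called lower: Tbxa2r (log2 fold change -1.36), Rasgrp2 (-1.74), Clec1b (-1.34), Rgs18 (-1.50), P2ry12 (the ADP receptor, -1.40), Gata1 (-1.59) and Cd226 (-1.58). edgeR called 3 of these, Clec1b, Rasgrp2 and Tbxa2r, against 4.09% of genes called lower. With DESeq2 the count rose to 11 without Young Bleo 20. There 3339 of 18389 genes were called in either direction, against 2578 of 18515 with all libraries. The count was 3 without any 1 of the other 3 Young Bleo libraries or of Young Sham 21 to 24. In those fits 1807 to 2365 genes were called. Clec1b had 1384 to 2522 normalized counts in Young Bleo, wholly below the Young Sham range.

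In Aged Bleo against Aged Sham 17 of the 23 were lower, against 2.44% of genes, with the smallest adjusted p-values for Clec1b (log2 fold change -2.01), Alox12 (-2.07), P2ry12 (-2.30), Mpig6b (-2.41), Rgs18 (-2.30), Plek (-1.97), Nfe2 (-1.82) and Gata1 (-2.37). Gp1ba (-2.35) was also called. Without library 14 the count was 1, Clec1b (log2 fold change -1.46, DESeq2 adjusted p = 0.0134), against 2.28% of genes called lower. With all libraries edgeR called the same gene, against 0.349% of genes. The DESeq2 count was 8 without Aged Bleo 1 and 7 without Aged Bleo 2. In these fits 474 of 17896 and 750 of 14987 genes were called in either direction, against 1080 of 18515 with all libraries. Against Young Sham, Aged Bleo differed in 1 of the 23, Tbxa2r (-1.50 ± 0.26, DESeq2 adjusted p = 1.03e-06), against 9.72% of genes called by DESeq2. edgeR called Tbxa2r too, and 5.69% of genes. Unlike the members, Tbxa2r was highest in Young Sham 22, at 8976 normalized counts, with 3506 in Aged Sham 14. The DESeq2 count was 2 without Aged Bleo 3 and 4 without Aged Bleo 5, where 2274 of 18371 and 1969 of 18357 genes were called.

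**Figure D3:**
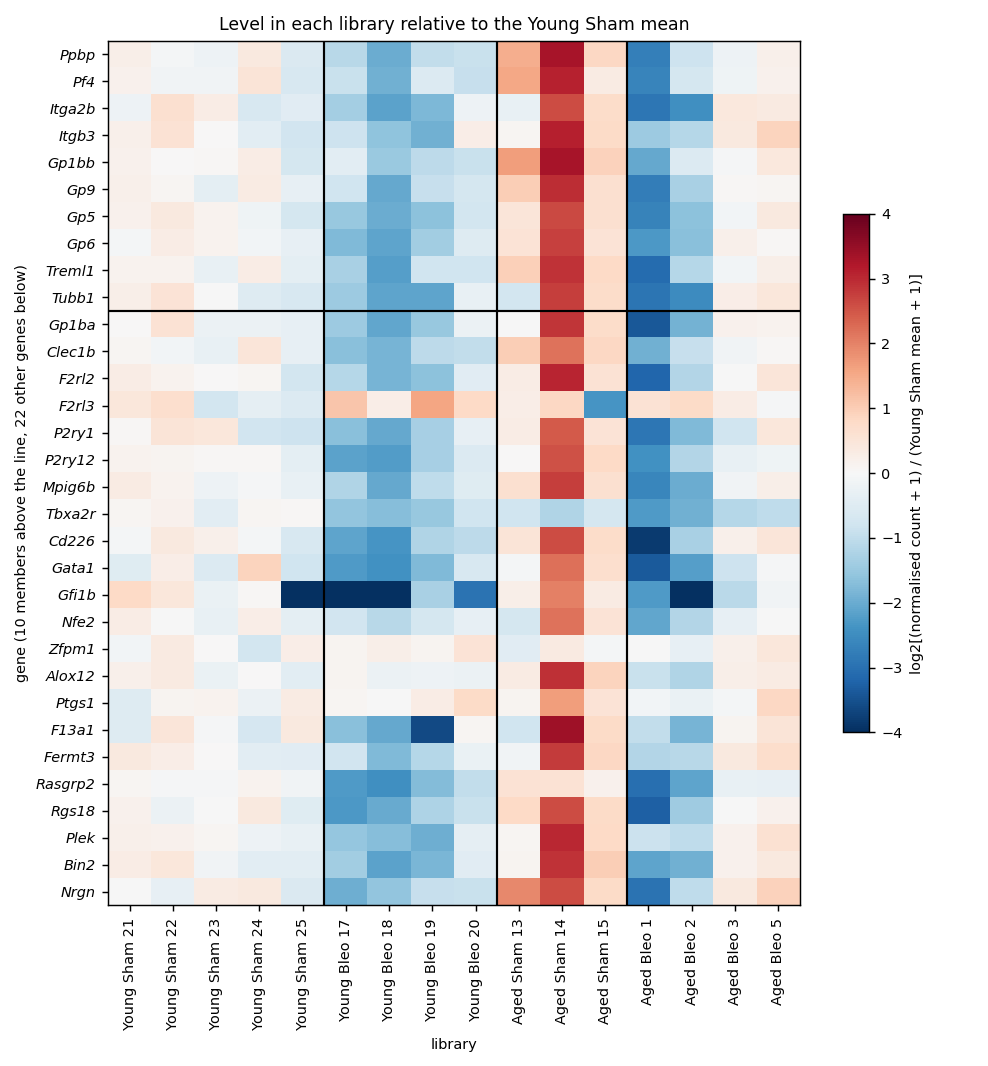
Level of each gene (vertical axis, 10 members above the line and 22 of the further platelet and megakaryocyte genes below) in each of 16 libraries (horizontal axis), as log2 of the normalized count + 1 over the Young Sham mean + 1; colours are capped at 4 either side. Aged Sham 14 is the darkest red column, highest for all 10 members and 18 of the 22 other genes shown, and Aged Bleo 1 is the bluest column among the members, lowest for 9 of them and for 13 of the others.

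Genes that platelets share with the endothelium varied in this respect. Of 8 such genes (Vwf, Selp, Mmrn1, Thbs1, Pecam1, Cd9, F5 and Fli1), 3 (F5, Thbs1 and Cd9) were highest in Aged Sham 14, against 7.68% of all genes. In Aged Sham against Young Sham 0 were called, against 2.24% of genes called higher and 1.11% lower by DESeq2. An unadjusted p under 0.05, a looser bar not counted over all genes, was met by 3 with DESeq2 and with edgeR. The summed level of all 8 was 6133 CPM in Aged Sham 14 and 3674 to 5242 CPM in the other libraries. F5, coagulation factor V, was at 7380 normalized counts in Aged Sham 14 and at 162 to 1947 in the others, and Thbs1, thrombospondin-1, at 23266 and at 761 to 6489. F5 was the only 1 of the 8 called in Aged Bleo against Aged Sham (log2 fold change -2.34 ± 0.79, DESeq2 adjusted p = 0.0479), and it was not called without library 14 or with edgeR.

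The members were compared pairwise over the libraries as a description. Spearman's rho between members had a median of 0.885 over the 45 pairs with 16 libraries (0.644 to 0.976) and 0.861 with the 15 libraries other than Aged Sham 14 (0.568 to 0.971). The pairs share libraries, depth and groups. Among the 13764 other genes with a mean of at least 50 normalized counts, the 10 whose levels ran most like the members' mean log2(normalized count + 1) included Slc6a4, the serotonin transporter (rho = 0.985 over 16 libraries), Mpig6b (0.982), Slamf1 (0.974), F2rl2 (0.971), Cd226 (0.971), Bin2 (0.962), Myl9 (0.959), Arhgdib (0.956) and Pls1 (0.956). The same 10 genes led over the 15 libraries without Aged Sham 14, and 4 of them are in the list of 23.

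Slc6a4, by which platelets take up serotonin, had 1803 to 2565 normalized counts in Young Sham, 416 to 1718 in Young Bleo, 3561 to 12066 in Aged Sham and 276 to 2625 in Aged Bleo. Its highest value was in an Aged Sham library and its lowest in an Aged Bleo library.

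The proportions of the 10 genes differed between libraries. Ppbp made up 35.2% to 44.8% of the members' summed FPKM and Pf4 made up 21.6% to 36.7%, so that both chemokines held the larger part everywhere. The share of Tubb1 ran from 2.46% in Aged Sham 13 to 13.9% in Young Sham 22, and that of Itga2b from 0.924% to 3.998% in the same libraries. Ppbp counts were 1.74 times those of Itga2b in Young Sham 22 and 1.78 times in Young Bleo 20, but 8.78 times in Aged Bleo 2 and 9.60 times in Aged Sham 13.

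The balance of short and long genes was set beside this ratio. It was measured as the median deviation of 501 protein-coding genes of at most 1000 bases minus that of 4149 genes of at least 5000 bases, on the log2 scale. It was 0.85 in Aged Sham 13, 0.44 in Young Bleo 19 and 0.37 in Aged Bleo 2, and -0.64 in Young Bleo 20 and -0.58 in Young Sham 22. The balance and the ratio of Ppbp to Itga2b did not rank all libraries alike. Young Bleo 19 had a ratio of 4.95, below the 5.91 of Young Sham 24, whose balance was 0.18. The table gives lengths of 586 bases for Pf4, 811 for Gp9, 1080 for Ppbp, 1152 for Gp6, 1248 for Treml1 and 1406 for Tubb1. Gp1bb has 1881, Gp5 2196, Itga2b 5454 and Itgb3 5901 bases. Tubb1 is thus shorter than Gp1bb. In Aged Sham 13, the library with the most positive balance, Ppbp, Pf4, Gp1bb, Gp9 and Treml1 were higher than in any library but Aged Sham 14, while Itga2b lay within the Young Sham range and Tubb1 below it. In Aged Sham 14 the balance was -0.13 and the ratio of Ppbp to Itga2b was 4.70, both within the range of the other libraries. The part of this balance in the differences between members was not tested.

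**Figure D4:**
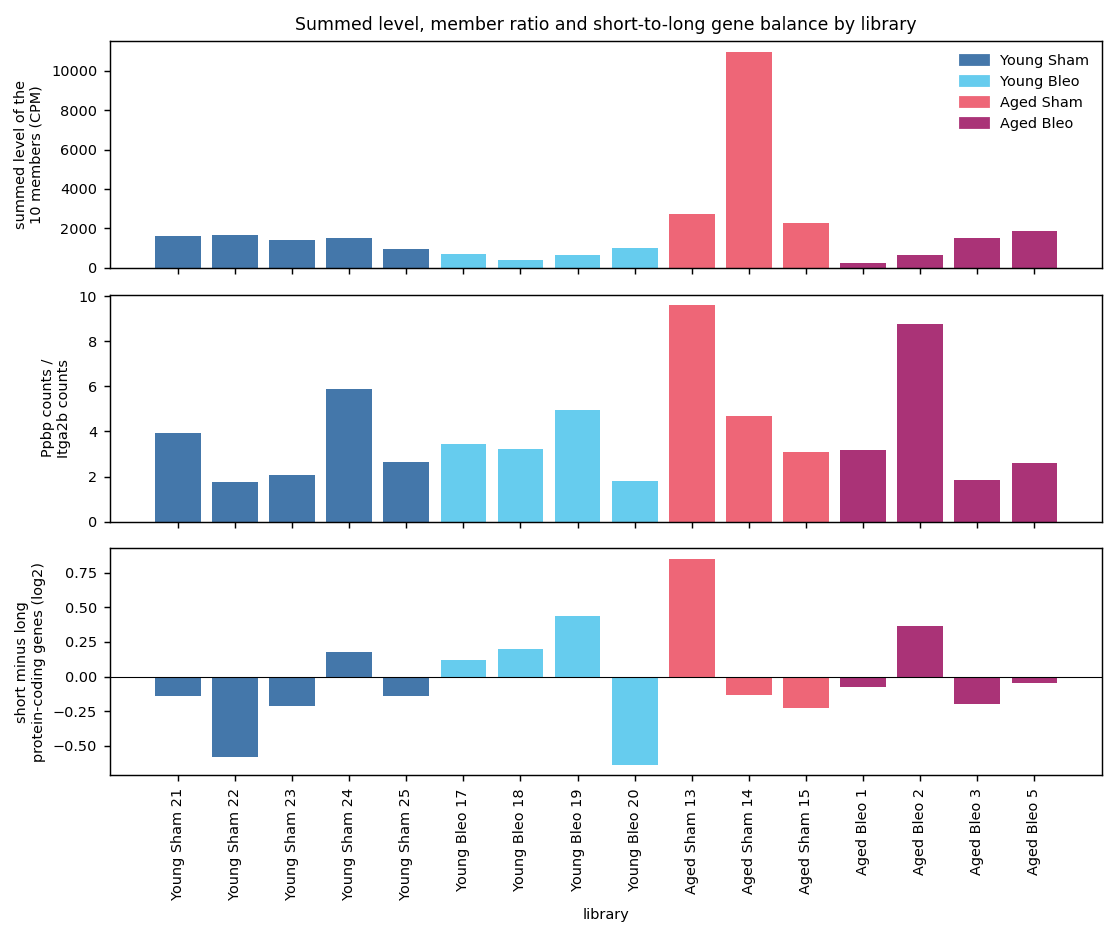
Bars for each library (horizontal axis) of the members' summed level in CPM (top), the ratio of Ppbp to Itga2b counts (middle) and the log2 balance of short against long protein-coding genes (bottom), coloured by group. Aged Sham 14 leads the top panel at 10977, while Aged Sham 13 leads the middle panel at 9.60 and the bottom panel at 0.85.

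The ratio of both integrin chains set a pair of libraries apart. Itga2b counts were 1.28 to 2.32 times those of Itgb3 in 14 libraries, but 0.694 times in Aged Bleo 1 and 0.755 times in Aged Bleo 2, the libraries with the highest macrophage sums. Itgb3 is also made by ECs and macrophages, whereas Itga2b is largely restricted to the megakaryocyte lineage and blood progenitors. The ratio of Itga2b to Tubb1, both lineage-restricted, was 0.783 to 1.46 across all 16 libraries. Whether Itgb3 RNA of macrophages or ECs had a part in the ratio of Itga2b to Itgb3 was not tested.

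By summed CPM, red cell genes did not single out Aged Sham 14, whereas the leukocyte sum there was the highest of Aged Sham. A list of 7 red cell genes, among them Hba-a1, Hba-a2, Hbb-bs, Hbb-bt, Alas2 and Slc4a1, summed to 969 CPM there, 989 CPM in Aged Sham 13 and 1260 CPM in Young Bleo 17, with Slc4a1 under 1 CPM everywhere. Hba-a1 (log2 fold change 2.12 ± 0.52, DESeq2 adjusted p = 0.00438) and Hbb-bt (2.01 ± 0.61, adjusted p = 0.0340) were higher in Aged Sham than in Young Sham, and Hbb-bs did not pass (2.16 ± 0.72, adjusted p = 0.0695). A list of 6 leukocyte genes (Ptprc, Coro1a, Laptm5, Tyrobp, Cd52 and Cd53) summed to 143 CPM in Aged Sham 14, 63.1 and 54.3 CPM in Aged Sham 13 and 15, 16.4 to 36.3 CPM in Young Sham and up to 289 CPM in Aged Bleo 1. By CPM 0 of its 6 genes were highest in library 14, and by normalized counts Laptm5 was, at 5250 against 5154 in Aged Bleo 1. Neutrophil genes (6) summed to at most 13.0 CPM and mast cell and basophil genes (5) to at most 3.83 CPM in any library, with Fcer1a at 0 throughout. Endothelial genes (10) summed to 15282 CPM in Aged Sham 14 and 12412 to 20178 CPM over all libraries. The part of red cell or leukocyte RNA in the platelet values was not tested.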

How the data were processed

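Paired-end reads were aligned by the authors with STAR (2.5.2b per the labels) to mm10 and counted per gene with Subread. The deposited table holds, for every gene and library, unnormalized counts and FPKM, and the annotation release and strand setting are not given in the sources used here. The labels name a SMART-Seq and Nextera kit and the study's methods a TruSeq kit. The 10 members and all gene lists were chosen with earlier results of these data known. Named beside the members are called genes of the platelet list (at most 8 per contrast by adjusted p), Gp1ba, Clec1b, Gata1, Sept5, the 10 genes most like the members, Cdh5, Pecam1, Ptprc, Hba-a1 and Hbb-bs; other genes named were chosen after their values were seen. A few genes of these lists are counted but not reported here by name.

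Counts of all 43346 genes in 16 libraries were fitted with DESeq2 1.42.0 (R 4.3.3), with group as the only term, the Wald test, default filters and the study's thresholds (adjusted p up to 0.05, log2 fold change of 0.5 or more in size). Alternatives were edgeR 4.0.16, limma 3.58.1 (voom, and trend on log2(FPKM + 0.1) or log2(FPKM + 1)), other size factors and filters, the compared groups alone, and each library left out. edgeR without Aged Sham 14, and the summed level without it, were added after seeing the data. The models were tested on simulated data, where DESeq2 recovered more changed genes than edgeR and limma but also made more false calls. Depth was 20907113 to 71035301 counts per library and each member had at least 138 counts in every library.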

Additional observations from a re-analysis of the deposited data

How the results depend on the processing

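In Aged Sham against Young Sham, the 5 members called by DESeq2 became 1 with edgeR, 0 with limma voom and with limma-trend on either FPKM pseudocount, and 3 with a low-count filter. The 6 other platelet genes called became 0, 0, 0, 0 and 3 in the same fits and 10 with size factors from endothelial genes. Over all genes, the 621 called became 158 with edgeR, 104 with limma voom, and 139 and 159 with limma-trend (pseudocounts 0.1 and 1). They became 596 with the low-count filter and 834 with endothelial size factors. In Young Bleo against Young Sham, the 1 member called became 0 with edgeR, limma voom, limma-trend, endothelial size factors, the low-count filter or both DESeq2 filters off. With the compared groups alone 9 were called. The 7 other platelet genes became 3 with edgeR, limma voom and limma-trend, and 18 with the compared groups alone. Over all genes, the 2578 called became 1793 with edgeR, 1736 with limma voom, and 1990 and 1478 with limma-trend. They became 3036 with endothelial size factors, 2525 with the low-count filter, 2319 with both filters off and 3152 with the compared groups alone. In Aged Bleo against Aged Sham, the 7 members became 2 with edgeR, 0 with limma voom and 2 with limma-trend. The 17 other platelet genes became 1 with edgeR, limma voom and limma-trend, and 5 with the compared groups alone. Over all genes, the 1080 called became 146 with edgeR, 53 with limma voom and 369 and 279 with limma-trend. They became 647 with the compared groups alone. The cause was not tested.

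The fits with 1 library left out used DESeq2, and for Aged Sham 14 also edgeR. Across them the members called ranged from 0 to 7 in Aged Sham against Young Sham and 0 to 4 in Young Bleo against Young Sham. In Aged Bleo against Aged Sham they ranged from 0 to 8. There the 0 came from edgeR, as Ppbp and Gp1bb stayed called in all 16 DESeq2 fits. The other platelet genes called ranged from 0 to 13, 3 to 11 and 0 to 18 in these comparisons. They ranged from 1 to 4 in Aged Bleo against Young Sham, and from 0 to 1 against Young Bleo and in the difference of the bleomycin responses. Over all genes, 60 to 691 were called in Aged Sham against Young Sham and 1766 to 3339 in Young Bleo against Young Sham. Aged Bleo had 183 to 1492 against Aged Sham, 1048 to 2274 against Young Sham and 3 to 469 against Young Bleo. The difference of the bleomycin responses had 0 to 226. The log2 fold change of Itgb3 in Aged Bleo against Young Sham, -0.01, was 0.22 with endothelial size factors and -0.49 to 0.27 with 1 library left out. With DESeq2 and 1 library left out, the differences of the bleomycin responses ranged from -1.24 to 0.43 for Itga2b and -1.65 to 0.31 for Itgb3. They ranged from -1.32 to 0.25 for Gp5, -1.32 to 0.19 for Gp6 and -1.30 to 0.64 for Tubb1. They turned positive without Aged Sham 14, at 0.43, 0.31, 0.25, 0.19 and 0.64 with DESeq2 and 0.44, 0.32, 0.27, 0.21 and 0.65 with edgeR.

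Apart from the endothelial size factors for Itgb3 and the fits that left out a library, no alternative reversed the direction of a member. With 3 Aged Sham libraries, 1 of which stood apart, the differences from Aged Sham are known only within wide limits. No paired analysis was possible because the replicate numbers do not repeat between groups.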
